A study of Mus musculus with 8 samples.

Results

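The genes described here encode the machinery of autophagy and the lysosome, and were chosen by name as 41 symbols of the 48440 in the count table. All 41 passed the filter on low counts, which kept 13771 genes, and the lowest count of any of them in a library was 229, for Atg14. RNA came from purified cardiomyocytes of C57BL6/J mouse pups at postnatal day 2, for which the labels name no treatment and no altered gene. A brother and a sister from each of 4 litters were used, so there are 4 libraries per sex and 2 per litter. The libraries are bulk preparations, in which fewer cells of a type and less RNA per cell cannot be told apart. Nothing in the labels says whether the litters were prepared together, so litter and preparation cannot be told apart either. Levels are given as CPM, the counts of a gene after each library is scaled to a common total with TMM.

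Autophagy encloses cytoplasm in a double membrane and delivers it to the lysosome for digestion. The ULK kinase complex starts the process, a lipid kinase complex around Pik3c3 marks the membrane, and a conjugation system attaches the small ATG8 proteins (the LC3 and GABARAP families) to it, where cargo receptors dock. Lysosomal proteases called cathepsins then digest the cargo, and the transcription factors Tfeb and Tfe3 activate many lysosomal and autophagy genes. In the heart, autophagy is known to rise around birth, when supply through the placenta ends.

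The E-box CACGTG is a palindromic site that Tfeb and Tfe3 are known to bind. Upstream sequences are shown for 3 members that hold it (Lamp1, Atg3 and Bnip3, itself called higher in litter 3). They are also shown for 3 of the members that were highest in litter 3 and have a promoter in the reference (Map1lc3b, Calcoco1 and Sqstm1). They are read from RefSeq on GRCm38.p6, 5′ to 3′ on the gene's strand, with CACGTG in capitals, and only the stretch of the window before the start that holds no annotated exon is printed. The stretches are chr8:121590188-121590360 (plus strand), chr15:102722179-102722428 (minus), chr11:50210828-50210889 (minus), chr7:138909520-138909756 (minus), chr8:13158911-13159160 (plus) and chr16:45158707-45158784 (plus), in the order of the lines.
Map1lc3b: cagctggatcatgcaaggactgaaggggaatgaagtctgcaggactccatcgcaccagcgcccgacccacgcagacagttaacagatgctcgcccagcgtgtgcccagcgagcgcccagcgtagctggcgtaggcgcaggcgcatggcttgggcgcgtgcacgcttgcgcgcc
Calcoco1: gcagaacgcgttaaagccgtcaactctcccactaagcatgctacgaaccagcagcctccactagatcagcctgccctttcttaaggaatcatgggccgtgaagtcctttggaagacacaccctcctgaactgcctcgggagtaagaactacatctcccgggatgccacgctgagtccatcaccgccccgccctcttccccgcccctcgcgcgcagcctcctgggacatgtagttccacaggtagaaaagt
Sqstm1: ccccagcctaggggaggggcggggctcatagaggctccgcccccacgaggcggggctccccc
Bnip3: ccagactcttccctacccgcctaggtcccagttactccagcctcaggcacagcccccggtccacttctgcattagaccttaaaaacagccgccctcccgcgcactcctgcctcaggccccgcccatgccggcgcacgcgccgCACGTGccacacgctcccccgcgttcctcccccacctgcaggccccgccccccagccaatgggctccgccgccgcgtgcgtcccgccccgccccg
Lamp1: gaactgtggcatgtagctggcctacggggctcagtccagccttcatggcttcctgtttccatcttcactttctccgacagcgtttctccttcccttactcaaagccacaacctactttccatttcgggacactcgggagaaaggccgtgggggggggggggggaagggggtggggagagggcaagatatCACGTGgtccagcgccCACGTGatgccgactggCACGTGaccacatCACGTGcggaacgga
Atg3: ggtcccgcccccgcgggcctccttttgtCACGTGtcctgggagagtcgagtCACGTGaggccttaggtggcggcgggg

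In the 250 bases before the annotated start, 7 of 37 RefSeq promoters (18.9%) of 33 members held CACGTG, namely those of Lamp1, Ctsd, Ctsl, Bnip3, Atg3, Atg5 and Atg7. Of 32851 promoters of the same length, 6.02% held it, with a median GC content of 52.4% against 59.6% in the member promoters, and the part of base composition was not tested. Lamp1 had 4 copies, beginning 61, 45, 28 and 15 bases before the start. The longer form TCACGTGA, which contains CACGTG, was in Atg3 and Ctsd and in 0.785% of all promoters. Searched on both strands, GTAAACA, a forkhead site, was in 0 of the 33 members and 3.17% of all promoters, and TGACNNNGC, an antioxidant response element core, was in Atg13, Ulk2 and Ctsd and 10.2% of all. Map1lc3b, Calcoco1, Sqstm1 and Optn had none of these letters in this window. Rb1cc1, Becn1, Pik3c3, Atg12, Atg16l1, Map1lc3a, Bnip3l and Ctsb had no entry.

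Transcript levels, compared between genes as CPM per kilobase of the longest coding transcript, were led by the ATG8 family and the lysosome. Map1lc3a, an LC3 protein, stood highest at 354 ± 40.1 CPM per kilobase (SD, n = 8), and its range of 315 to 433 did not meet that of the next gene. Gabarap followed at 164 ± 16.2, then Lamp1, a main glycoprotein of the lysosomal membrane, at 145 ± 8.64, with overlapping ranges of 147 to 192 and 132 to 157. Ctsd, the aspartyl protease of the lysosome, reached 108 ± 8.38, with a range of 99.7 to 123 that stayed below Lamp1 and met the highest value of Calcoco1, 101. Calcoco1 and Sqstm1, both cargo receptors, lay at 73.1 ± 15.7 and 71.9 ± 11.8 and could not be ordered within their spread.

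At the other end, Atg14, the subunit that directs the Pik3c3 complex to autophagy, was lowest at 3.37 ± 0.74 CPM per kilobase, with a range of 2.53 to 4.85 that overlapped the 4.44 to 5.67 of Atg7. Of the paired transcription factors, Tfeb was at 22.7 ± 2.16 and Tfe3 at 5.56 ± 0.834. Within the ATG8 family, Map1lc3b lay at 50.7 ± 10.2, Gabarapl2 at 15.9 ± 1.09 and Gabarapl1 at 14.3 ± 2.32. Divided by all exonic bases instead, Map1lc3a stayed first, but Gabarap (120) fell just behind Lamp1 (121), Calcoco1 (37.9) behind Sqstm1 (57.3), and Map1lc3b (17.7) from place 7 to place 11. Tfeb moved from place 13 to place 24, and Tfe3 took the last place (2.03).

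**Figure D1:**
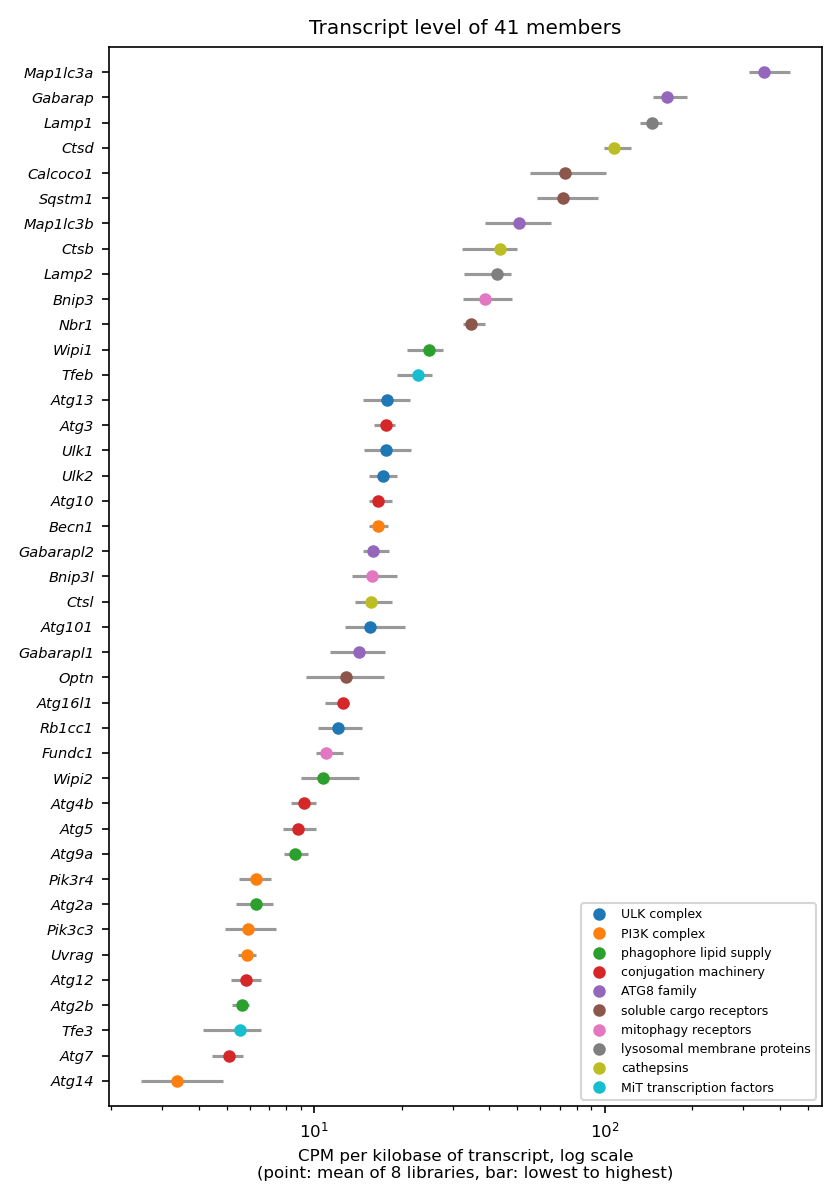
Level of each of the 41 members in CPM per kilobase of the longest coding transcript, on a log axis. Points are means of the 8 libraries, bars run from the lowest to the highest library, and colours mark the role; Map1lc3a is highest at 354 and Atg14 lowest at 3.37.

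Litter was compared first, by a test of all 4 litters together that holds sex constant. The members that differed most were Map1lc3b, Ctsb, Calcoco1 and Optn, and most differences set litter 3 or litter 1 apart from the rest. In edgeR's quasi-likelihood F test, 17 of 41 members (41.5%) had an adjusted p-value under 0.05, beside 32.1% of all genes tested, so nothing particular to the members is read from that count. The fitted range over litters had a median of 0.27 on the log2 scale over members and 0.37 over all genes, and the widest among members was 0.74. Without the female of litter 3 the count was 11, 9 of them among the 17, and without both libraries of litter 3 it was 8, of which 7 were, beside 1898 of all genes instead of 4427.

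The direction differed by litter. Set against the mean of the other 3 litters, litter 3 had 14 members higher and 2 lower (edgeR), beside 13.6% and 14.8% of all genes. Litter 1 had 2 higher and 7 lower, beside 7.86% and 5.41%. Litter 2 had 1 higher and 0 lower beside 3.3% and 0.879% of all genes, and litter 4 had 2 higher and 0 lower, beside 4.71% and 5.8%. At an unadjusted p under 0.05, litter 2 had 3 members higher (7.32%) and 8 lower (19.5%), beside 10.8% and 7.12% of all genes. Litter 4 had 8 higher (19.5%) and 1 lower (2.44%), beside 14.1% and 13.6%. DESeq2 gave 12 and 2 in litter 3, 2 and 5 in litter 1, and 0 lower in litters 2 and 4. These contrasts share libraries. The median over members was 0.12 in litter 3 and -0.11 in litter 1 on the log2 scale, beside 0 over all genes in both. When libraries were scaled by size only, without TMM, the members of litter 3 were again 14 higher and 2 lower, while all genes went from 1871 higher and 2032 lower to 2419 and 1698, and litter 4 had 1 member lower instead of 0.

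The counts moved when libraries were left out, which also leaves fewer samples to test. The 14 members higher in litter 3 became 3 without its female, the smallest library, and 9 without the female of litter 1 or 8 without both libraries of litter 1. All 14 differences kept their sign without that female, with a median of 0.24 on the log2 scale (0.12 to 0.49) against 0.36 (0.19 to 0.51) with it, and litter calls over all genes fell from 4427 to 3048. The 3 were Atg13, Map1lc3b and Calcoco1, which with Ctsb were the 4 members that kept their litter 3 call in every fit tried. The 7 lower in litter 1 became 4 without its male and 2 without its female, 3 without litter 3, and 15 without litter 2. Without litter 1, litter 2 had 4 members lower instead of 0, and without litter 3, litter 4 had 6 higher instead of 2.

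**Figure D2:**
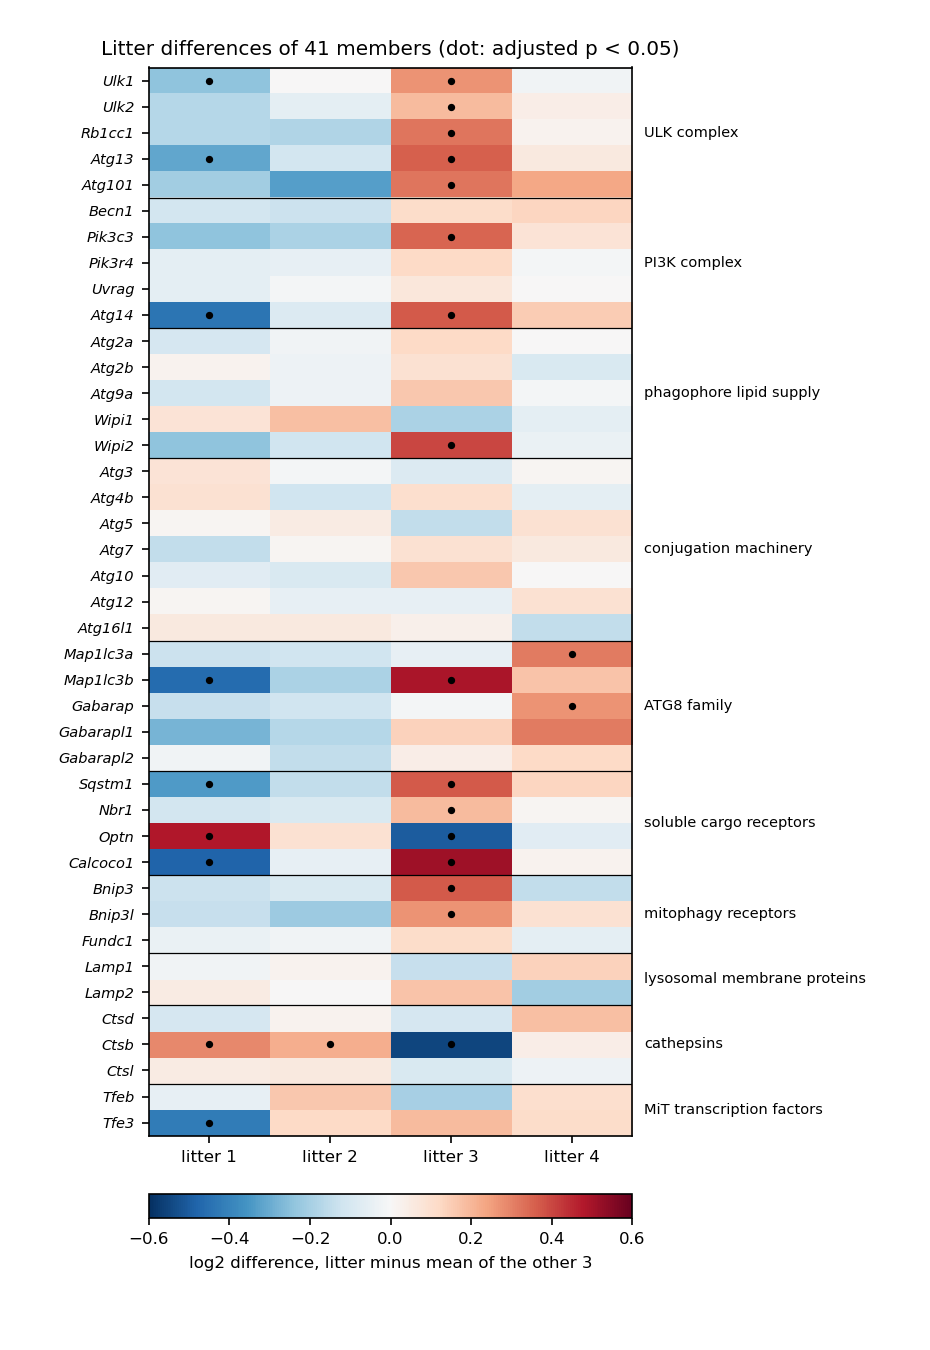
Difference of each litter from the mean of the other 3 on the log2 scale, from blue (lower) to red (higher), for 41 members grouped by role. Black dots mark an adjusted p under 0.05 in edgeR; litter 3 has 14 higher and 2 lower, litter 1 has 2 and 7.

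Beside these differences, markers of several cell types moved with litter 3. The labelled cell type was borne out by its markers, since 10 cardiomyocyte genes (Myh6, Tnnt2, Actc1 and others) were all present and summed to between 72600 and 97900 CPM. That sum was 73700 (male) and 72600 CPM (female) for litter 3, and 86200 to 97900 in the other 6 libraries, with 5 of 10 markers lower in litter 3. The lower sum lay mainly in Myh6, Actc1 and Myl2 (-0.61, -0.67 and -0.39 on the log2 scale), while Tnnt2, Pln, Ryr2 and Ttn were not called, at 0.11, 0.11, 0.16 and 0.02. Fibroblast markers summed to 51.8 and 32.4 CPM in litter 3 against 108 to 243, with 6 of 8 lower, and mural cell markers to 920 and 897 against 1330 to 1510, with 4 of 7 lower. Endothelial markers summed to 18 and 19.6 against 16 to 148, with 5 of 8 lower. Of 6 atrial genes, Nppa and Dkk3 were higher there, and without Nppa, which made up most of their sum in litter 3, they summed to 162 and 120 CPM against 36.3 to 386. Erythroid genes were at 532 and 185 against 98.6 to 247 (2 of 6 tested higher), and 2 of 5 epicardial markers were lower. Macrophages, which are rich in lysosomes, gave 6.59 and 10.3 CPM against 5.83 to 9.61 over 11 markers, of which 3 could be tested and 0 were called in litter 3, with Fcgr1 and Cd163 at 0 in every library. Of 5 neutrophil and 4 lymphocyte markers, none was above 0 in every library.

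Markers moved with the other litters too. In litter 1, 3 of 10 cardiomyocyte and 3 of 8 fibroblast markers were higher, mural markers had 1 higher and 1 lower, and 2 of 6 atrial genes were lower. In litter 2, 8 of 8 endothelial, 6 of 8 fibroblast, 3 of 7 mural and 2 of 5 epicardial markers were higher. In litter 4, 6 of 8 fibroblast markers were higher, cardiomyocyte markers had 5 higher and 2 lower, mural markers 2 and 1, and the macrophage marker Cd68 was lower. The part of these cell types in the members' differences was not tested.

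Among initiation genes, all 5 members of the ULK complex were higher in litter 3, with a median of 0.32 on the log2 scale and a range of 0.19 to 0.36, beside 13.6% of all genes, and Ulk1 and Atg13 were lower in litter 1. Ulk2 did not pass the overall litter test (0.0532), but did with library size alone and without litter 2 or litter 4. Atg13, the adaptor that holds the ULK kinases to the scaffold, had 53.1, 60.7, 76.7 and 63.8 CPM in the males of litters 1 to 4 and 55.1, 59.1, 76.1 and 67.5 CPM in the females. Both litter 3 libraries lay above the other 6, and both litter 1 libraries below. Atg13 was 0.36 higher in litter 3 (SE 0.06, edgeR adjusted p = 0.0013) and 0.31 lower in litter 1 (log2 change -0.31, SE 0.06, adjusted p = 0.00786), the second not called without the male or female of litter 1, where it was -0.29 (0.17) and -0.33 (0.116), or without litter 3, where it was -0.21 (0.0913).

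Rb1cc1, the large scaffold also called FIP200, had 83.3, 78.3, 105 and 96.4 CPM in males and 84.2, 88.6, 111 and 88.0 CPM in females of litters 1 to 4. The 2 litter 3 libraries were again the highest (log2 difference 0.32, SE 0.07, adjusted p = 0.00417; 0.30 and 0.0637 without the female of litter 3). Ulk1, Ulk2 and Atg101 had adjusted p-values of 0.0172, 0.0298 and 0.0295 in litter 3 and lost the call without its female (0.195, 0.11 and 0.544). They also lost it without litter 1 (0.0526, 0.165 and 0.0774), and Atg101 lost it in DESeq2 (0.0717). Ulk1 and Ulk2 lost it without the male of litter 3 (0.0626 and 0.267), Ulk2 and Atg101 without the female of litter 1 (0.065 and 0.0716) or of litter 2 (0.0506 and 0.056), Ulk2 without the male of litter 1 (0.0873), and Atg101 without litter 2 (0.119). In litter 1, Ulk1 changed by -0.24 (adjusted p = 0.049), a call that 7 of 11 left-out fits ended, up to 0.724 without the female of litter 1, as did DESeq2 (0.0624) and both other scalings (0.0541 and 0.0545).

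In the lipid kinase complex, 2 of 5 members differed by litter in edgeR, beside 32.1% of all genes. Both were higher in litter 3, beside 13.6% of all genes. The counts in the other small groups are also to be read against these shares. DESeq2's litter test called neither of the 2 members. Pik3c3, the catalytic subunit Vps34, had 16, 16.4, 21.8 and 19.5 CPM in males and 17.6, 18.3, 24.1 and 20.3 CPM in females, so that litter 3 was highest in both sexes (log2 difference 0.35, SE 0.08, edgeR adjusted p = 0.00645). Without the male or the female of litter 3 it was 0.37 or 0.33, with an adjusted p of 0.0523 or 0.0735. Atg14 had 10.1, 10.4, 12.4 and 13.1 CPM in males and 9.42, 13.4, 18.1 and 13.6 CPM in females. Its litters overlapped, and its difference in litter 3 was 0.37 (adjusted p = 0.0431), and 0.15 without the female (0.583). It also ended without the female of litter 1 (0.0964), the male of litter 2 (0.0733), the female of litter 4 (0.0883) or litter 1 (0.162), and in DESeq2 (0.0927). In litter 1 Atg14 changed by -0.44 (adjusted p = 0.0424), a call that 7 of 11 left-out fits ended, up to 0.571 without the female of litter 1, as did DESeq2 (0.0825). Becn1, Pik3r4 and Uvrag, the subunits shared by or alternative to Atg14, had log2 ranges over litters of 0.20, 0.13 and 0.10, with adjusted p-values of 0.081, 0.709 and 0.84. Becn1 shares 41.1% of its 100-base windows with Cntd1, which is transcribed from the other strand and had 101 counts over all libraries.

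Of the 5 genes that supply and sense lipid at the growing membrane, Wipi2, which recruits the conjugation system, was the only one called in the litter test. It had 49.6, 51.2, 61.8 and 47.8 CPM in males and 46.7, 51.6, 73.9 and 59.8 CPM in females of litters 1 to 4. Litter 3 was highest in each sex (log2 difference 0.40, SE 0.08, edgeR adjusted p = 0.00369; 0.0955 without its female). Wipi1, its relative, had the opposite sign in litter 3 (-0.19, adjusted p = 0.068). The lipid transporters Atg2a and Atg2b and the scramblase Atg9a ranged over 0.13 to 0.20 and did not pass.

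In the conjugation machinery, no member was called in the litter test or in a litter contrast. None of Atg3, Atg4b, Atg5, Atg7, Atg10, Atg12 and Atg16l1 passed the edgeR litter test, with adjusted p-values from 0.281 to 0.839 and differences in litter 3 from -0.15 to 0.16 on the log2 scale. Atg7, the activating enzyme, was listed at 17.3 to 22.1 CPM over the 8 libraries, and Atg3, the conjugating enzyme, at 33.2 to 38.9 CPM. That these 7 passed no test does not show that they were equal.

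The ATG8 family, which is attached by that machinery, split between litters. Map1lc3b, the LC3B protein used as the common marker of autophagosomes, lies on chromosome 8 at 121590361 to 121598760. It had 102, 114, 166 and 140 CPM in males and 104, 123, 172 and 146 CPM in females of litters 1 to 4. The order of the litters was the same in both sexes, and no 2 litters overlapped. Map1lc3b was 0.49 higher in litter 3 (SE 0.05, edgeR adjusted p = 7.28e-05) and changed by -0.46 in litter 1 (SE 0.06, adjusted p = 0.000412), and both calls held in all 16 alternative fits, with adjusted p-values up to 0.00256 and 0.0269.

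Map1lc3a and Gabarap were instead highest in litter 4. Map1lc3a had 355, 350, 377 and 438 CPM in males and 375, 386, 384 and 482 CPM in females (log2 difference in litter 4 0.31, SE 0.05, adjusted p = 0.00662). Gabarap had 204, 215, 222 and 259 CPM in males and 207, 199, 219 and 251 CPM in females (0.27, SE 0.05, adjusted p = 0.0118). In both genes the 2 litter 4 libraries lay above the other 6. Without the female of litter 4 the adjusted p-values were 0.0594 and 0.0736, and for Gabarap 0.0808 without the male. Mitochondrially encoded genes took 18.5% of counts in the litter 4 male against 13.4 to 15.2% in the other libraries, and with those genes left out litter 4 again had 2 members higher. Gabarapl1 and Gabarapl2 did not pass (0.0519 and 0.339), though Gabarapl1 did without a count filter, without the male, the female or both libraries of litter 3, and without litter 2.

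**Figure D3:**
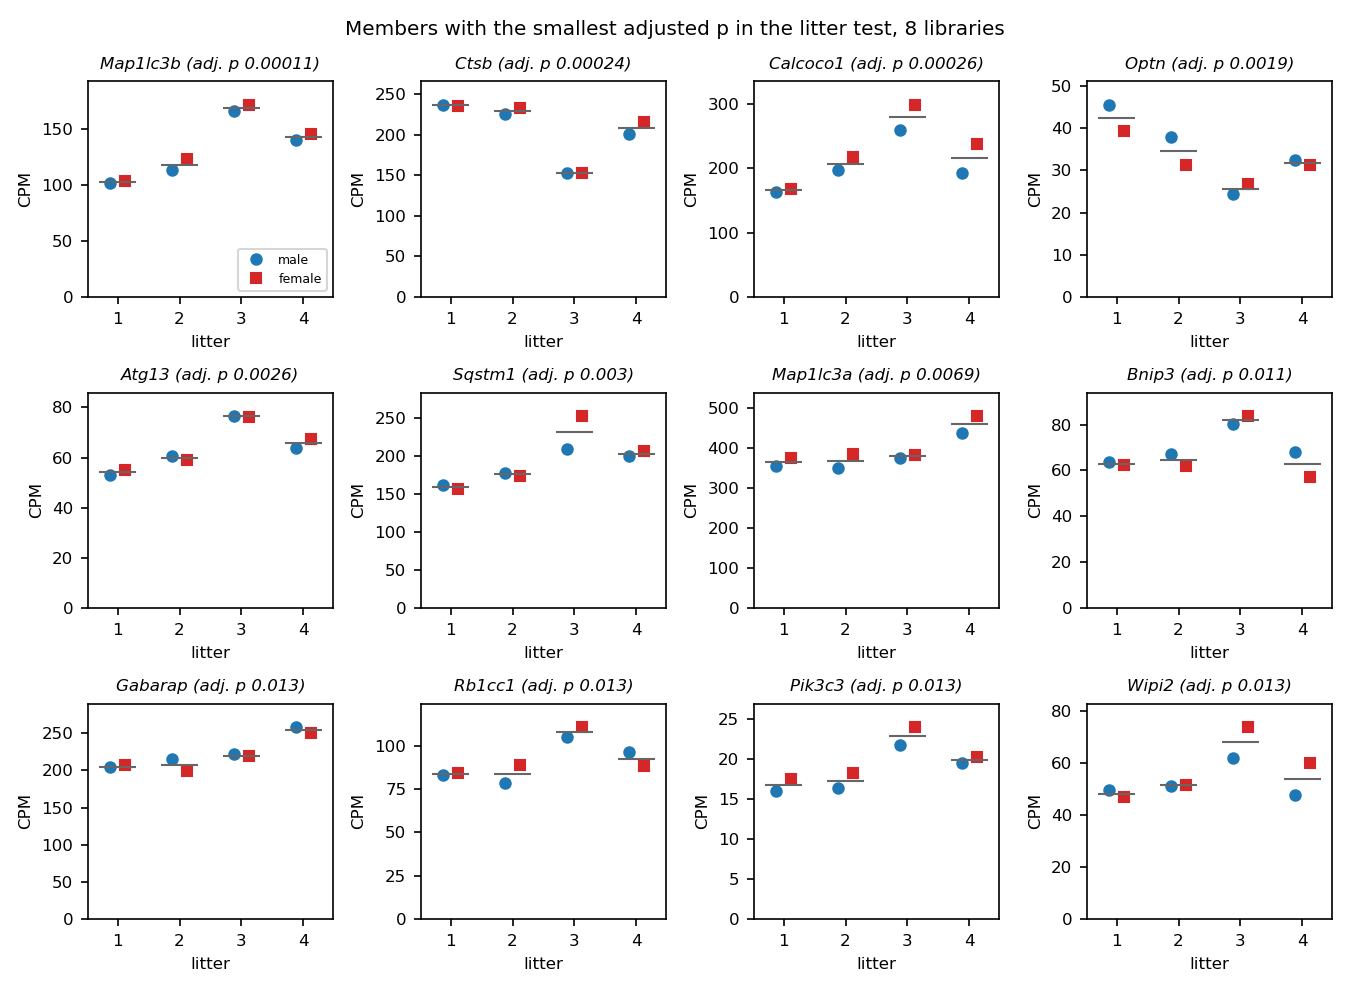
CPM of the 12 members with the smallest adjusted p in the litter test, by litter, with circles for males, squares for females and a grey line for the mean of the 2. Map1lc3b, Calcoco1 and Atg13 are highest and Ctsb and Optn lowest in litter 3, while Map1lc3a and Gabarap are highest in litter 4.

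The 2 LC3 genes were also compared within each library, as a ratio that does not depend on scaling. Per kilobase, Map1lc3b stood to Map1lc3a as 0.121, 0.138, 0.186 and 0.135 in males and 0.117, 0.135, 0.189 and 0.128 in females of litters 1 to 4. Both litter 3 values lay above the other 6. The size of such a ratio rests on the transcript lengths chosen, but its order over libraries does not. The ratio was formed after the values were seen and was not tested.

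Cargo receptors moved in both directions. Calcoco1, a receptor known for selective autophagy of the endoplasmic reticulum and Golgi, lies on chromosome 15 at 102706777 to 102722178 and had 164, 197, 259 and 193 CPM in males and 168, 218, 299 and 238 CPM in females. Litter 3 was highest and litter 1 lowest in each sex. The difference was 0.51 in litter 3 (SE 0.06, edgeR adjusted p = 0.000101) and -0.48 in litter 1 (SE 0.06, adjusted p = 0.000662), and both held in all 16 alternative fits, with adjusted p-values up to 0.00342 and 0.0486.

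Sqstm1, the ubiquitin-binding receptor p62, had 162, 178, 209 and 200 CPM in males and 156, 174, 253 and 206 CPM in females. The litter 3 male was only just above the litter 4 female, and without the litter 3 female the call in litter 3 (0.37, SE 0.07, adjusted p = 0.0022) ended at 0.107. In litter 1 Sqstm1 changed by -0.34 (SE 0.07, adjusted p = 0.00855), which ended without its male (0.0626) or female (0.236). Mrnip overlaps 17.3% of its exonic bases on the opposite strand. Nbr1, a related receptor, was 0.19 higher in litter 3 (adjusted p = 0.0232), but the overall litter test gave 0.0634 (passed with library size alone and without litter 4), and 6 of 11 left-out fits ended the litter 3 call, up to 0.213 without its female.

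Optn, a receptor for ubiquitin-marked mitochondria, ran the other way. It had 45.6, 38.0, 24.4 and 32.4 CPM in males and 39.4, 31.4, 26.8 and 31.2 CPM in females, lowest in litter 3 and highest in litter 1 in both sexes. The differences were -0.50 in litter 3 (SE 0.09, edgeR adjusted p = 0.00158) and 0.48 in litter 1 (SE 0.08, adjusted p = 0.0026), which ended at 0.058 without the male of litter 3 and at 0.109 without the male of litter 1. Within libraries the per-kilobase ratio of Calcoco1 to Optn was 9.35 and 9.83 in litter 3 and 3.17 and 3.76 in litter 1, with the other 4 libraries between 4.57 and 6.72. Like the LC3 ratio, this was formed after the values were seen.

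Of the mitophagy receptors, which sit on mitochondria and bind ATG8 proteins directly, Bnip3 and Bnip3l were higher in litter 3. Bnip3, a gene known to respond to hypoxia, had 63.7, 67.1, 80.1 and 68.2 CPM in males and 62.3, 61.9, 83.9 and 57.2 CPM in females. The 2 libraries of litter 3 were above the other 6, while the other 3 litters overlapped (0.37, SE 0.07, edgeR adjusted p = 0.00241; 0.0809 without the female of litter 3). The antisense gene Gm45507 overlaps 22.3% of the exonic bases of Bnip3. Of its windows, 33.5% are shared with other genes, among them Gm45507, AC160336.1 and Gm16439, so part of the count of Bnip3 is uncertain. Bnip3l, also known as Nix, was 0.27 higher (SE 0.08, adjusted p = 0.02), but ended at 0.465 without that female, at 0.0558 without the female of litter 1, and at 0.0522 and 0.0622 without litter 1 or litter 2. It shares 15.3% of its windows with the pseudogene Bnip3l-ps, which had 44 counts in all. Bnip3l is abundant in maturing red cells, and the part of erythroid RNA, at 532 and 185 CPM in litter 3 against 98.6 to 247 CPM, was not tested. Fundc1, on the X chromosome, did not pass (0.686).

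At the lysosome, the membrane proteins and the most abundant protease showed no litter call, and Ctsb was lower in litter 3. Ctsb, a cysteine cathepsin, lies on chromosome 14 at 63122462 to 63145923 and had 237, 225, 153 and 201 CPM in males and 235, 233, 153 and 216 CPM in females of litters 1 to 4. Both litter 3 libraries lay below the other 6. The difference was -0.55 in litter 3 (SE 0.06, edgeR adjusted p = 4.57e-05), and it held in all 16 alternative fits with an adjusted p of at most 0.00154. In the overall litter test Ctsb had an adjusted p of 0.000239, and 0.192 with litter 3 left out. It was also called higher in litter 1 (0.29, adjusted p = 0.00567) and litter 2 (0.22, adjusted p = 0.042), where leaving out litter 3 gave 0.291 and 0.813. The litter 1 call also ended without its male (0.174) or female (0.0843), and the litter 2 call in 7 of 11 left-out fits. Fdft1 on the opposite strand overlaps 12.8% of the exonic bases of Ctsb, shares 14.5% of its windows and had 7005 counts over all libraries, so part of the count of Ctsb is uncertain.

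Ctsd had 212 to 261 CPM and Ctsl 84.9 to 114 CPM over the 8 libraries, with litter adjusted p-values of 0.0652 and 0.762. Per kilobase, Ctsb stood to Ctsd as 0.324 and 0.306 in litter 3, as 0.368 and 0.371 in litter 4, and as 0.426 to 0.499 in litters 1 and 2. Ctsd shares 35% of its windows with the same-strand gene Gm49369, and Ctsl 25.4% with its neighbours, so their levels are uncertain. Lamp1 had 295 to 351 CPM and Lamp2 118 to 171 CPM (0.167 and 0.175).

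**Figure D4:**
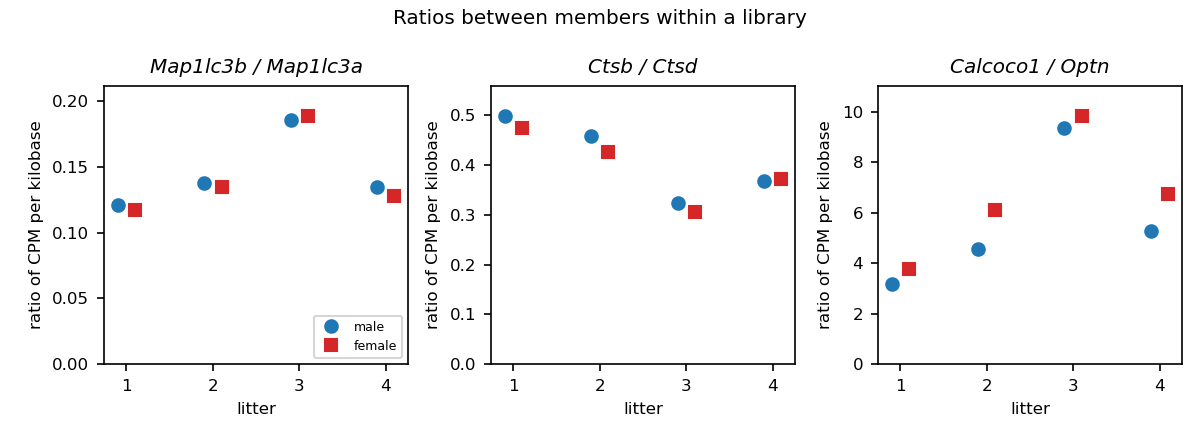
Ratio of CPM per kilobase within each library by litter, for Map1lc3b to Map1lc3a, Ctsb to Ctsd and Calcoco1 to Optn, with circles for males and squares for females. In litter 3 the first is 0.186 and 0.189, the second 0.324 and 0.306 and the third 9.35 and 9.83.

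Of the transcription factors, Tfe3 was called in 1 litter and Tfeb in none. Tfeb was at 45.3 to 59.5 CPM with a litter 3 difference of -0.20 (edgeR adjusted p = 0.0585). Tfe3, on the X chromosome, was lower in litter 1 (-0.42, SE 0.11, adjusted p = 0.024), with 16.1, 18.8, 20.9 and 17.3 CPM in males and 14, 21, 20.4 and 22.2 CPM in females. Without the female of litter 1 the adjusted p was 0.451, and without litter 3 it was 0.055. In the overall litter test of edgeR Tfe3 was at 0.0488, and at 0.051 with DESeq2's size factors. DESeq2's own litter test did not call it, and 7 of 12 left-out fits in edgeR ended the call.

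Other genes of the pathway, 128 on 7 lists, were counted in the same fit. Of the 126 tested, 31 (24.6%) differed by litter, beside 32.1% of all genes, and in litter 3 20 (15.9%) were higher and 14 (11.1%) lower, near the 13.6% and 14.8% of all genes. Called in the litter test were 3 of 16 subunits of the vacuolar ATPase, the proton pump of the lysosome, 7 of 35 other lysosomal hydrolases and cofactors, and 5 of 14 other lysosomal membrane proteins. The same held for 7 of 24 genes of nutrient sensing through mTORC1 and AMPK, 4 of 24 other core and fusion genes, 5 of 12 other selective receptors and 0 of 1 MiT factor (Mitf; adjusted p = 0.194). In litter 3, the lists had 0 higher and 2 lower, 5 and 6, 4 and 1, 3 and 1, 5 and 3, 3 and 1, and 0 and 0, in that order, and nothing is read from counts this small.

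Pink1, the kinase that marks damaged mitochondria for mitophagy, had the smallest adjusted p of these genes (6.16e-05). It had 217, 251, 361 and 301 CPM in males and 220, 272, 393 and 317 CPM in females of litters 1 to 4, with litter 3 highest and litter 1 lowest in each sex (0.53 in litter 3, edgeR adjusted p = 3.32e-05). Hspb8, a chaperone of chaperone-assisted selective autophagy, was lower in litter 3 (-0.49, adjusted p = 0.000359), at 43.8 and 39.6 CPM against 53.4 to 63.9 CPM. Npc1, the cholesterol exporter of the lysosome, was 0.39 higher (adjusted p = 0.000947), as were Flcn, a regulator of mTORC1 signalling at the lysosome (0.53, adjusted p = 0.000792), and the WIPI relative Wdr45 (0.64, adjusted p = 0.00149). Atp6ap1, an accessory subunit of the proton pump, was lower (-0.37, adjusted p = 0.00247).

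The comparison of males with females asked whether these genes differ by sex at this age. None of the 41 members passed in edgeR's quasi-likelihood test, beside 0.0436% of all genes, and DESeq2 called 0 as well. At an unadjusted p under 0.05 there was 1 member, against 306 of 13771 genes. With litter as a block, which sets the male against the female of the same litter, 0 of 41 passed beside 0.211% of all genes, and 5 (12.2%) had an unadjusted p under 0.05, beside 1592 (11.6%) of all genes. The median log2 fold change over members, male minus female, was -0.03, beside 0 over all genes. The male was lower in all 4 litters in 6 of 41 members and higher in all 4 in 2. Of all genes tested, 20.3% had the same direction in all 4 litters, so nothing particular to the members is read from that.

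Atg2a, a lipid transporter, had the smallest p, with 36.8, 37.6, 40.3 and 34.2 CPM in males and 39.0, 41.6, 44.9 and 46.0 CPM in females of litters 1 to 4. It was lower in the male of every litter, though the highest male was above the lowest female (log2 fold change -0.20, 95% interval -0.39 to -0.01, edgeR adjusted p = 1). Atg5, part of the conjugating complex, had 21.6, 23.7, 19.9 and 22.5 CPM in males and 19.9, 18.7, 18.4 and 20.7 CPM in females, higher in all 4 males (0.17, interval -0.02 to 0.37). Ctsl, a cysteine cathepsin, had 99.8, 114, 90.4 and 107 CPM in males and 98.8, 86.6, 94.5 and 84.9 CPM in females, higher in 3 of 4 males (0.17, interval -0.03 to 0.37). Pairing the sexes within litters gave adjusted p-values of 0.313, 0.386 and 0.417 for these 3 genes.

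Calcoco1, lower in all 4 males, had the smallest adjusted p with the block, 0.295. Of the 3 members on the X chromosome, Lamp2, the gene mutated in Danon disease, had 162, 171, 163 and 158 CPM in males and 150, 135, 169 and 118 CPM in females (0.20, interval -0.04 to 0.43). The females of litters 1, 2 and 4 lay below every male, and the female of litter 3 lay within the male range. Tfe3 and Fundc1 had log2 fold changes of -0.09 and 0.08. Over all members the 95% intervals, from the fit without litter, ran from -0.65 to 0.52 at their widest. Atg14 was at the lower end and Optn at the upper end. With litter as a block their standard errors were 0.11 and 0.07, instead of 0.18 for each.

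**Figure D5:**
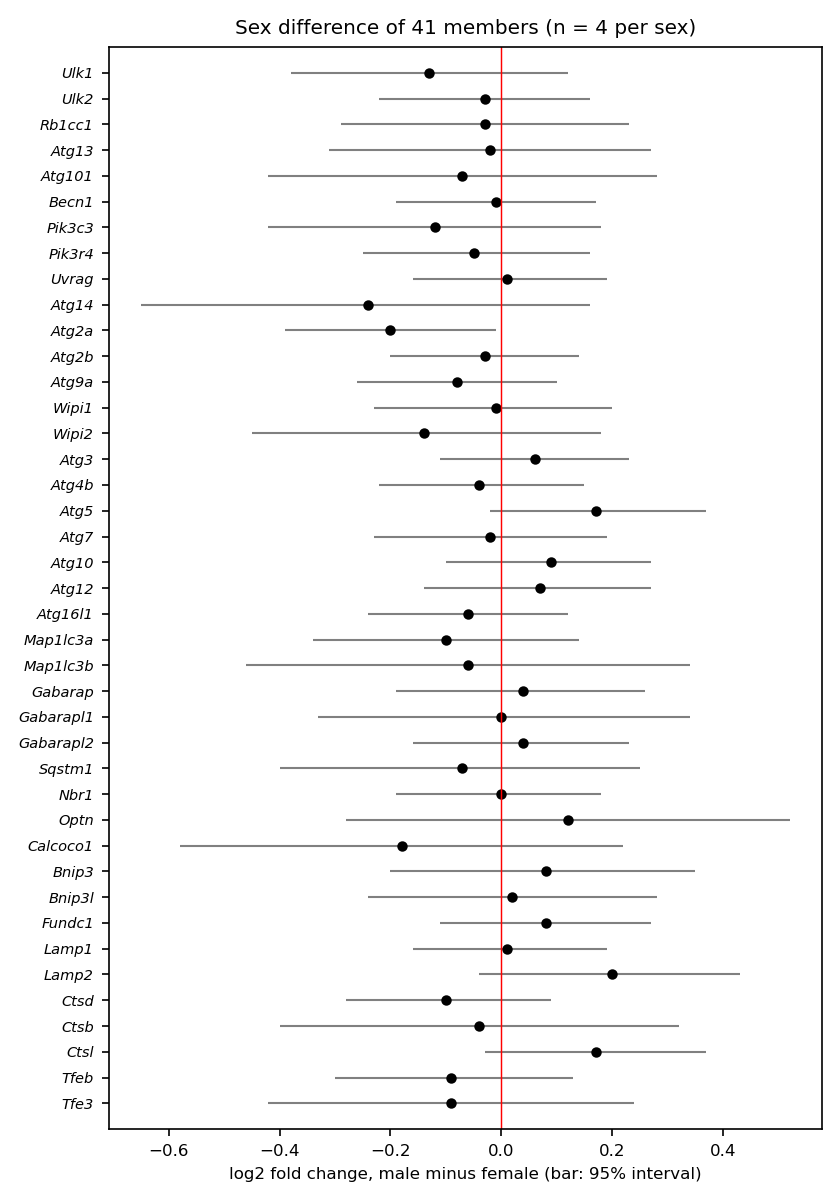
Log2 fold change of males over females for 41 members, in the order of their roles. Bars are 95% intervals from the edgeR fit without litter (n = 4 per sex). All adjusted p-values are 1, and the intervals reach from -0.65 (Atg14) to 0.52 (Optn).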

How the data were processed

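Per the labels, RNA of purified cardiomyocytes went into a stranded total RNA kit, although the molecule is given as poly(A) RNA, and was read as single ends of 100 bases. The authors deposited raw read counts per gene symbol. Per the submitters' processing notes, STAR 2.7.3a and mm10 were used. The counting program, the annotation and the strand setting are not given in the sources used here. Totals ran from 14226342 to 24910243 counts per library. At the lowest member count, 229, counting error is 6.61%, near the coefficient of variation of 7.28% between pups after litter is taken out.

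Counts were filtered with filterByExpr on sex, scaled with TMM and tested in edgeR 4.0.16 (R 4.3.3) by quasi-likelihood F tests, with Benjamini-Hochberg adjustment over 13771 genes and a threshold of 0.05. Litter was tested with sex in the model (3 residual degrees of freedom), and sex without litter (6). Standard errors are the log2 fold change over the square root of F. Alternatives were DESeq2 1.42.0, other scalings and filters, and left-out libraries and litters. P-values for litter rest on how the difference between male and female varied over these 4 litters. P-values for sex without the block rest on the spread between libraries of the same sex.

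The labels tie a male and a female to each litter. After removal of sex means, their correlation across genes was 0.367 to 0.696 within litters and -0.482 to 0.27 between them. Chi-square per degree of freedom between libraries of a sex was 9.56 to 44.9, so none repeats another.

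Scripts were tested on simulated data, where the litter test made more false calls than its threshold when the spread differed from gene to gene. Lengths, overlaps and shared windows of 100 bases came from GENCODE M21 on GRCm38, and promoters from RefSeq. Retreg1 is in the table as Fam134b. Members and lists were chosen with earlier results of these data known. Values in every library are given for the 12 members with the smallest litter p, the 3 with the smallest sex p, and the highest and lowest per kilobase; of each other list, the 3 with the smallest litter p could be named. Lamp2 and Tfe3 were given by library after their values were seen.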

Additional observations from a re-analysis of the deposited data

Results flagged for a closer look

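In each sex the highest or lowest of 4 libraries was compared with the other 3. Of 82 such groups over the 41 members, 4 had a library far outside the rest, where chance gives about 4.1. Ulk1 was at 98.2 CPM in the male of litter 3, against 83.5 to 85.3 CPM in the other males. Rb1cc1 was at 111 CPM in the female of litter 3, against 84.2 to 88.6 CPM. Map1lc3a was at 482 CPM in the female of litter 4, against 375 to 386 CPM, and Gabarapl1 at 31.8 CPM in the male of litter 4, against 24 to 24.4 CPM.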

How the results depend on the processing

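Of 45 calls of a member in the litter test or a litter contrast, 10 held in every alternative and 0 changed direction. In alternatives that left out no library 5 were lost, a count that does not include DESeq2's own litter test. That test did not call Pik3c3, Atg14 and Tfe3. Besides Ulk2, Nbr1 and Gabarapl1, the litter test gained Lamp2 (no count filter; without the male of litter 3), Tfeb (without the male of litter 3), Wipi1 (without the female of litter 3) and Ctsd (without litter 2). The count of 17 members differing by litter was 14 to 19 over the alternatives that kept all libraries, and 8 to 19 over those that left out a library or a litter, with 1898 to 4586 of all genes. When libraries or litters were left out, members higher in litters 1 to 4 numbered 0 to 2, 0 to 1, 3 to 14 and 0 to 6, and members lower 2 to 15, 0 to 4, 2 to 3 and 0 to 1. A litter reduced to 1 library was assumed to vary like the others. Without a count filter, 1 member was lower in litter 2 and 1 in litter 4, as was 1 in litter 4 with library size alone. The replicate block, which pairs the sexes by litter, raised the sex calls over all genes from 6 to 29 and left those over members at 0. The median of members by sex was -0.029, and ran from -0.057 to 0.009 with libraries left out. The cause of these shifts was not tested.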

Other observations

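Of the 35 other lysosomal hydrolases and cofactors tested, 5 (14.3%) were higher and 6 (17.1%) lower in litter 3, near the 13.6% and 14.8% of all genes. Ctsf, Ctso and Man2b1 had the smallest litter p of this list, and the other genes here were named after their values were seen. Ctsf had 22.2, 23.5, 38.2 and 27.3 CPM in males and 24.7, 23.8, 45.2 and 29 CPM in females of litters 1 to 4, and was 0.73 higher in litter 3 (edgeR adjusted p = 2.64e-05). Ctso was 1.13 higher (adjusted p = 6.11e-05), at 24.7 and 20.1 CPM against 7.95 to 12.4 CPM. Man2b1, Ids and Glb1 were 0.44, 0.32 and 0.25 higher (adjusted p = 0.00074, 0.0244 and 0.0271). Smpd1 and Arsb were lower, by -0.35 and -0.47 on the log2 scale (adjusted p = 0.00129 and 0.00962), and also passed the overall litter test (0.0053 and 0.0188). Ctsc, Ctsk, Lgmn and Galns were lower by -0.38, -0.71, -0.30 and -0.67 (adjusted p = 0.0456, 0.0248, 0.0214 and 0.0257). These 4 and Glb1 did not pass the overall litter test (0.0931, 0.0814, 0.0807, 0.092 and 0.0572). Ctsa, Ctsh, Ctsz and Tpp1 were not called, with differences of 0.05, 0.04, -0.03 and 0.14. Fibroblast markers, summing to 51.8 and 32.4 CPM in litter 3 against 108 to 243 CPM, were lower there as well, and their part was not tested.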
